A study of Saccharomyces cerevisiae with 30 samples.

Results

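The genes described here are 9 genes of *Saccharomyces cerevisiae* that bring ammonium and amino acids into the cell or build and break down glutamate and glutamine. They are the ammonium permease genes *MEP1* (YGR121C), *MEP2* (YNL142W) and *MEP3* (YPR138C), the general amino acid permease gene *GAP1* (YKR039W), the glutamine synthetase gene *GLN1* (YPR035W), the glutamate dehydrogenase genes *GDH1* (YOR375C), *GDH3* (YAL062W) and *GDH2* (YDL215C), and the glutamate synthase gene *GLT1* (YDL171C). They were taken by systematic name, 9 of the 7126 genes counted, and all 9 passed the filter on low counts that left 5891 genes for testing.

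RNA-seq was performed on SK288C diploids (*MATa*/*MATα*, auxotrophic for histidine, leucine, lysine and uracil, homozygous for *TAO3* E1493Q and *MKT1* D30G) after 5 h in SPO media, a potassium acetate medium that induces meiosis. The *ime4-cat* strain carries D348A and W351A in both copies of *IME4*, the gene of the m6A methyltransferase, so its protein lacks catalytic activity. The *rme1-10* strain carries an A to T change in the 3′ UTR of both copies of *RME1*, which encodes a repressor of meiosis. The WT strain has neither change. All 3 strains have the *RME1* promoter of the highly expressed *rme1-S288C* allele. They lack the inserted A that lowers *RME1* expression in the parental SK288C strain. With this allele, the paper reports, efficient meiosis needs the methyltransferase activity of Ime4p. Each strain gave 3 libraries of polysomal RNA, from pooled polysome fractions of a sucrose gradient, and 3 of total RNA, from the input lysate.

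The labels of 12 of these 18 libraries disagree. Groups here follow the strain number and the fraction letter of the deposited tables. By their titles, the libraries taken here as *ime4-cat* total RNA would be WT input, those taken as *rme1-10* total RNA would be *ime4-cat* input, those taken as *rme1-10* polysomal RNA would be *rme1-10* input, and those taken as WT total RNA would be *rme1-10* polysomes. Titles and strain numbers agree for the other 6 libraries, the *ime4-cat* and WT polysomal ones, and the comparison of those 6 is the one that does not depend on this choice. Counts on genes ranged from 586141 to 6009889 per library. *RME1* averaged 169 ± 7.54 CPM in *ime4-cat*, 125 ± 19.5 CPM in *rme1-10* and 82.5 ± 7.88 CPM in WT polysomal libraries, and 210 ± 29.8 CPM in *ime4-cat*, 147 ± 19.8 CPM in *rme1-10* and 102 ± 12.1 CPM in WT total RNA libraries (SD, n = 3 each; CPM are counts scaled to library size with TMM factors). Under the titles *RME1* would average 147 CPM in *ime4-cat* and 210 CPM in WT input libraries. *IME4* averaged 130 ± 31.0 CPM in *ime4-cat* and 187 ± 30.1 CPM in WT polysomal libraries, which did not pass the test (edgeR, adjusted p = 0.11). In total RNA libraries it averaged 101 CPM in *ime4-cat*, 161 CPM in *rme1-10* and 174 CPM in WT. There *ime4-cat* was lower than WT (log2 fold change -0.79 ± 0.19 SE, edgeR, adjusted p = 0.008). Under the titles *IME4* would average 161 CPM in *ime4-cat* and 101 CPM in WT input libraries, the reverse of the polysomal order. Since the *ime4-cat* allele is a change of codons and not a deletion, the level of *IME4* does not by itself identify the strain. The third *ime4-cat* total RNA library stood apart from its replicates, with a mean correlation of 0.907 to them. For the 9 genes, calls or fold changes of *ime4-cat* against WT in total RNA are given with and without it. For other genes named, fold changes are given with it only.

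Yeast cells begin meiosis when diploids are starved of nitrogen on a non-fermentable carbon source, so nitrogen state is an input to sporulation. When good nitrogen sources are lacking, the GATA factors Gln3p and Gat1p activate genes for the uptake and use of poorer ones, a control known as nitrogen catabolite repression, while Dal80p and Gzf3p repress through the same sites. Ammonium enters through the Mep permeases and is joined to 2-oxoglutarate by Gdh1p or Gdh3p to give glutamate, or to glutamate by Gln1p to give glutamine. Glt1p makes glutamate from glutamine and 2-oxoglutarate, and Gdh2p runs the opposite way, releasing ammonium from glutamate.

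The GATA factors bind around the letters GATAAG, and the DNA before the start codons of the 9 genes holds unequal numbers of them. Both strands of the 500 bases before each start codon were searched in the R64 (sacCer3) assembly. Of 6025 genes, 22.7% had at least 1 match, 3.62% at least 2, 0.548% at least 3 and 0.199% at least 4. *MEP2* had 7 matches, *MEP3* had 5, *GAP1* had 4 and *GDH3* had 3. *MEP1*, *GDH1* and *GLT1* had 2 each, and *GLN1* and *GDH2* had none, which says only that these letters are not in this window. Matches may share bases with a neighbour, as below in *MEP2* and *GDH3*. Of the 4 genes with the most matches, *MEP2*, *MEP3* and *GAP1* passed the test between *ime4-cat* and WT cells in polysomal RNA, and *GDH3* only in total RNA. *GLN1*, with no match, passed in both fractions, and whether matches bear on these calls was not tested. The stretches with the most matches are shown for these 4 genes with the most matches. Where stretches tied, in *MEP3* and *GAP1*, the one nearest the start codon is shown. Each stretch is 30 bases, 5′ to 3′ on the strand of the gene, with GATAAG or its reverse complement CTTATC in capitals.
MEP2: tttaaGATAAGaaaGATAAGATAAGacatc
MEP3: tccttgtCTTATCgcatCTTATCgcaacaa
GAP1: taaattaaacatGATAAGcgcatagttggg
GDH3: tatattaCTTATCTTATCGATAAGcagtat
The *MEP2* stretch lies at chrXIV:356983-357012 (plus strand), from 470 to 441 bases before the start codon. The *MEP3* stretch lies at chrXVI:812682-812711 (minus strand), from 258 to 229 bases before it. The *GAP1* stretch lies at chrXI:514809-514838 (plus strand), with its match from 242 to 237 bases before it, and the *GDH3* stretch at chrI:31289-31318 (plus strand), from 278 to 249 bases before it. All 4 are upstream of the coding sequence, and a match describes the sequence and not a bound site. Of all the matches in the 9 genes, the one nearest a start codon lay 233 to 228 bases before that of *MEP2*.

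**Figure D1:**
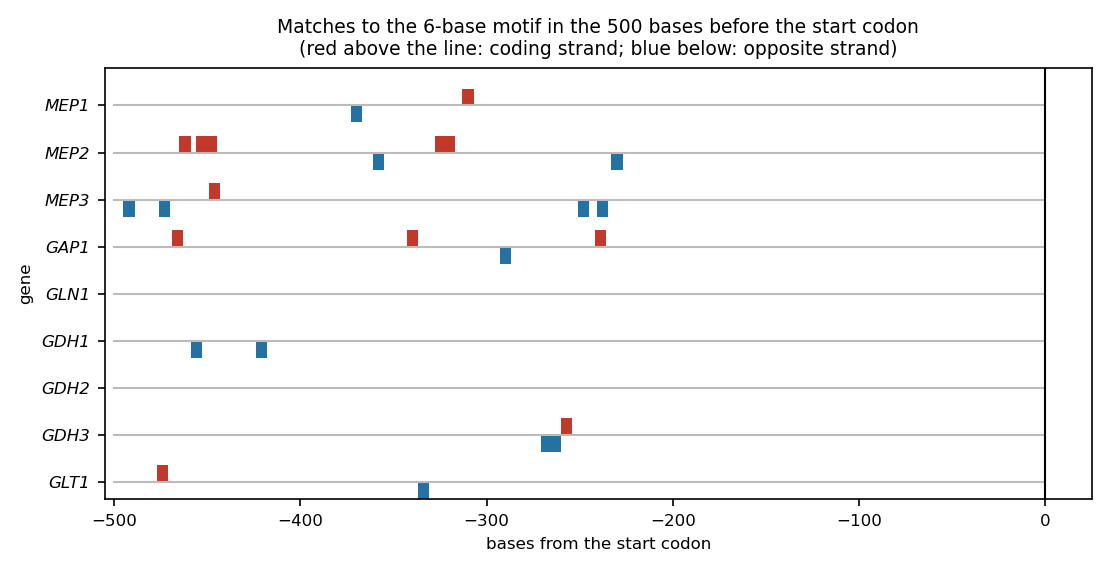
Position of each match to GATAAG (red, coding strand) or its reverse complement (blue, opposite strand) in the 500 bases before the start codon of the 9 genes, in bases from the start codon. *MEP2* has 7 matches, *MEP3* 5, *GAP1* 4 and *GDH3* 3, and *GLN1* and *GDH2* have none.

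Each of the 9 genes has a single coding exon that overlaps no other annotated coding gene, and none of their 50-base stretches occurs a second time in the genome. *GDH1* lies at chrXV:1041678-1043042 (minus strand), *GDH3* at chrI:31567-32940 (plus strand), *GAP1* at chrXI:515063-516871 (plus strand) and *GLN1* at chrXVI:642208-643320 (plus strand). *MEP1* lies at chrVII:731449-732927 (minus strand), *MEP2* at chrXIV:357453-358952 (plus strand) and *MEP3* at chrXVI:810984-812453 (minus strand). *GDH2* lies at chrIV:70640-73918 and *GLT1* at chrIV:149203-155640, both on the minus strand.

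Per kilobase of coding sequence, *GDH3* had the highest level of the 9 genes in all 6 sets of libraries, *GAP1* the next and *MEP3* the lowest. *GDH3* averaged 3888 CPM per kb in *ime4-cat*, 2920 in *rme1-10* and 2836 in WT polysomal libraries, which placed it at or above the 99.1 percentile of 5520 genes with a coding length in each. *GAP1* averaged 2928 CPM per kb in *ime4-cat*, 1348 in *rme1-10* and 1256 in WT polysomal libraries. *MEP3* averaged 69.4 CPM per kb in *ime4-cat*, 40.7 in *rme1-10* and 44.7 in WT polysomal libraries, near the middle of all genes. In WT polysomal libraries the order ran *GDH3*, *GAP1*, *GLN1*, *MEP2*, *GDH1*, *MEP1*, *GDH2*, *GLT1*, *MEP3*, and of its neighbours *GLN1* and *MEP2*, and *MEP2* and *GDH1*, overlapped in their 3 libraries. In *ime4-cat* polysomal libraries *MEP2* stood above *GLN1* and *GLT1* above *GDH2*, and both of these pairs overlapped. In the *ime4-cat* total RNA libraries *GDH3* and *GAP1* overlapped as well.

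Comparison of *ime4-cat* with WT cells asked how the loss of m6A methyltransferase activity bears on these genes. In polysomal RNA, where all labels agree, 4 of the 9 genes were higher in *ime4-cat* cells and none was lower at an adjusted p under 0.05, against 12.6% of all genes tested in either direction, 5.96% higher and 6.65% lower (quasi-likelihood test of edgeR, Benjamini-Hochberg adjusted across the 5891 genes). Of the calls over all genes 47.2% were higher, and 36.2% without TMM factors. The 4 genes were *GAP1*, *MEP2*, *GLN1* and *MEP3*, that is, 3 of the 4 permease genes and glutamine synthetase. With same-numbered libraries blocked together *GDH3* and *GLT1* passed as well, and calls over all genes also rose. The median log2 fold change of the 9 genes was 0.46, beside 0.00 for all genes. Of the 9 genes, 6 had all 3 *ime4-cat* libraries above all 3 WT libraries and 1 had them all below, beside 15.4% and 16.2% of all genes.

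*GAP1*, whose product takes up all amino acids when nitrogen is poor, changed most. It had 4336, 5927 and 5629 CPM in *ime4-cat* polysomal libraries, against 2055, 2349 and 2411 CPM in WT polysomal libraries. The lowest *ime4-cat* library was well above the highest WT library. The difference was 2.33-fold (log2 fold change 1.22 ± 0.17 SE, 95% interval 0.88 to 1.57, adjusted p = 5.4e-05). It was called with each library left out in turn, with log2 fold changes between 1.13 and 1.34. In total RNA *GAP1* had 4949, 6027 and 4424 CPM in *ime4-cat* libraries, against 2137, 2795 and 2680 CPM in WT libraries, which also did not overlap. The log2 fold change there was 1.02 ± 0.16 (adjusted p = 0.00047), and 1.11 without the third *ime4-cat* total RNA library (adjusted p = 5.5e-05).

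*MEP2* encodes the ammonium permease of highest affinity, which also signals in filamentous growth. It had 1533, 2521 and 2314 CPM in *ime4-cat* polysomal libraries, against 842, 1232 and 1272 CPM in WT polysomal libraries. Replicate 1 was the lowest in 5 of the 6 sets of libraries, so that the spread of *MEP2* within a set was wide although the groups did not overlap. *MEP2* differed by 0.93 ± 0.27 on the log2 scale (adjusted p = 0.025), and the adjusted p was above 0.05 without *ime4-cat* polysomal replicate 2 (0.11), *ime4-cat* polysomal replicate 3 (0.09), WT polysomal replicate 1 (0.12) or WT polysomal replicate 2 (0.055). In total RNA it had 1483, 2255 and 1383 CPM in *ime4-cat* libraries, against 711, 1261 and 1229 CPM in WT libraries. This difference did not pass the test (log2 fold change 0.67 ± 0.27, adjusted p = 0.094). It passed once same-numbered libraries were blocked together (0.72, adjusted p = 0.0016), and without the third *ime4-cat* total RNA library (0.80, adjusted p = 0.041).

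*MEP3*, a permease of low affinity, was the least abundant of the 9 genes. It had 91.5, 112 and 103 CPM in *ime4-cat* polysomal libraries, against 60.5, 64.4 and 72.3 CPM in WT polysomal libraries, and 84.7, 101 and 103 CPM in *ime4-cat* total RNA libraries, against 45.6, 58.0 and 49.3 CPM in WT total RNA libraries. The groups did not overlap in either fraction. The log2 fold change was 0.62 ± 0.18 in polysomal RNA (adjusted p = 0.027) and 0.89 ± 0.17 in total RNA (adjusted p = 0.0015). In polysomal RNA, where only 41 to 94 reads covered the gene in each library, the adjusted p was above 0.05 when *ime4-cat* polysomal replicate 2 (0.11) or 3 (0.078), or WT polysomal replicate 1 (0.10) or 2 (0.079), was left out, and without TMM factors (0.073). In total RNA it was called with every library left out in turn, at 0.83 without the third *ime4-cat* total RNA library (adjusted p = 0.0012).

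*MEP1* did not share this pattern. It had 453, 601 and 532 CPM in *ime4-cat* polysomal libraries, against 453, 570 and 550 CPM in WT polysomal libraries, so that the groups overlapped almost wholly. The log2 fold change was 0.01 with a 95% interval of -0.35 to 0.37 in polysomal RNA, and -0.20 with an interval of -0.55 to 0.16 in total RNA (-0.12 without the third *ime4-cat* total RNA library, adjusted p = 0.71). As a share of the summed level of the 3 permease genes per kb, *MEP2* held 73.5%, 77.7% and 78.2% in *ime4-cat* polysomal libraries, against 61.8%, 65.7% and 66.8% in WT polysomal libraries. In total RNA *MEP2* held 79.1%, 79.7% and 76.4% in *ime4-cat* total RNA libraries, against 62.7%, 70.8% and 72.4% in WT total RNA libraries. The shares did not overlap in either fraction (p = 0.1 in a two-sided exact permutation test, which can go no lower with 3 libraries a group, and 0.133 adjusted over 8 comparisons of ratios, all chosen after the levels were seen).

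**Figure D2:**
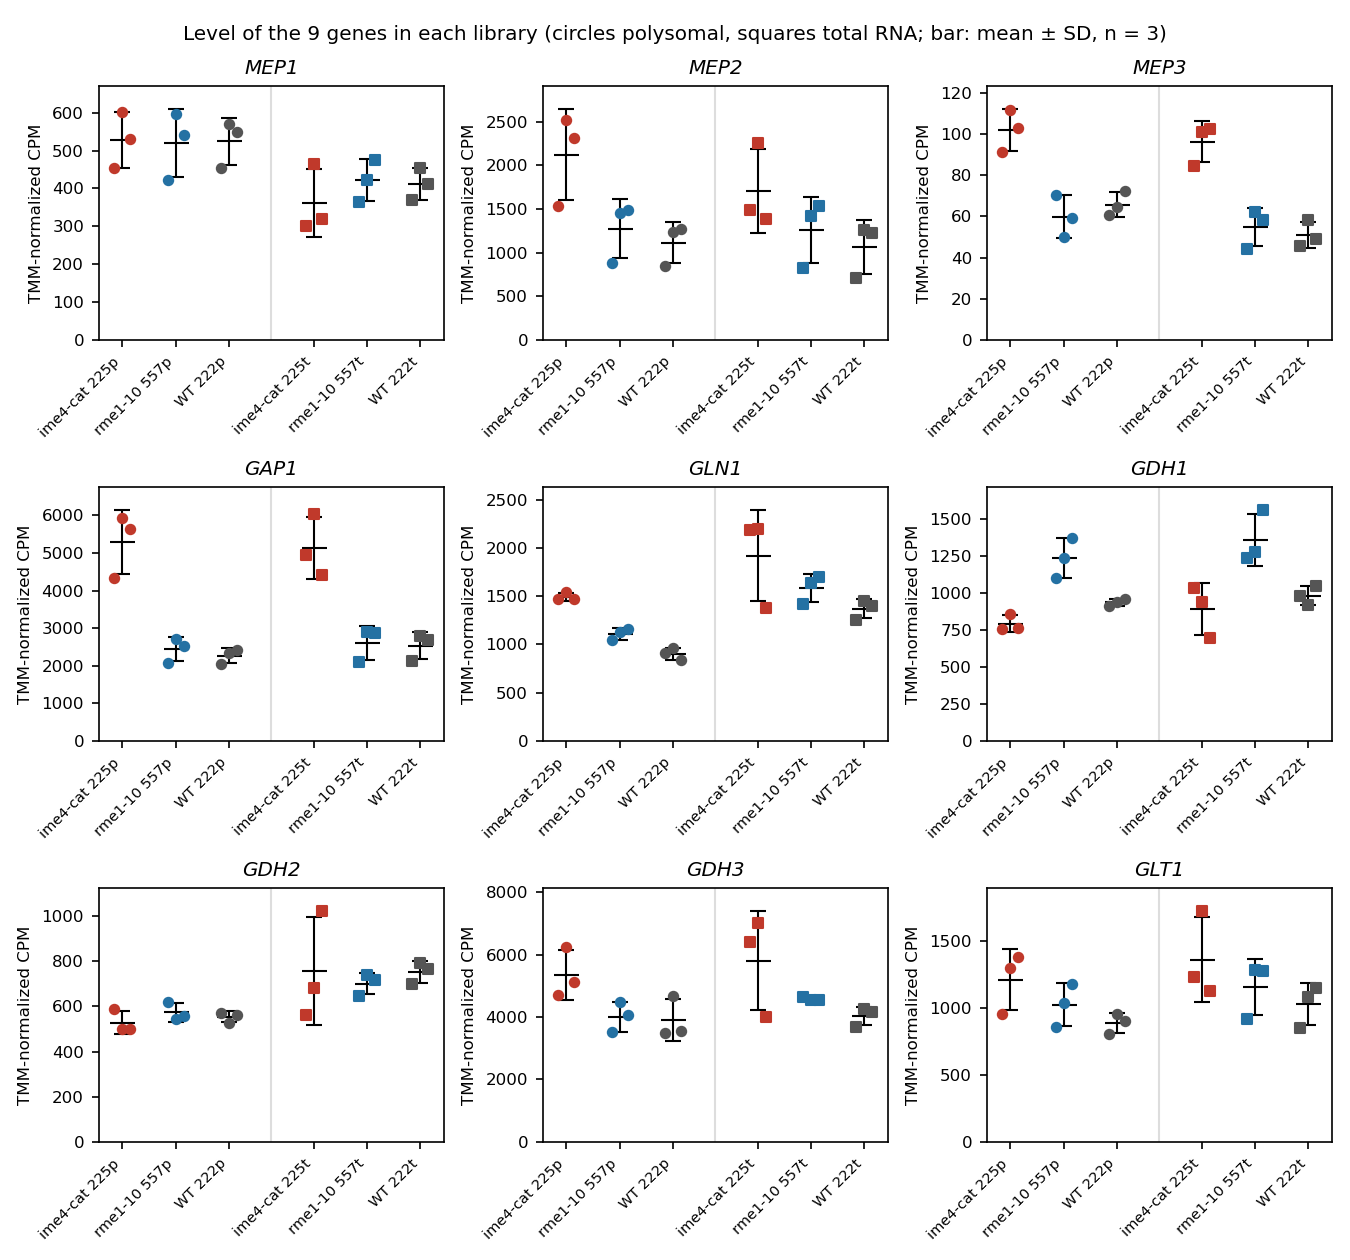
TMM-normalized CPM of each gene in every library (points; circles polysomal, squares total RNA), with the mean and SD of 3 libraries (black bars). *GAP1* in *ime4-cat* libraries lies between 4336 and 6027 CPM, above all *rme1-10* and WT libraries, and *GDH1* is highest in *rme1-10* libraries.

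Among the genes of assimilation, *GLN1* rose in *ime4-cat* cells. It had 1469, 1539 and 1473 CPM in *ime4-cat* polysomal libraries, against 913, 962 and 838 CPM in WT polysomal libraries, without overlap. Its log2 fold change was 0.73 ± 0.15 (adjusted p = 0.0025), and it was called with each library left out in turn. In total RNA it had 2187, 2200 and 1376 CPM in *ime4-cat* libraries, against 1257, 1448 and 1402 CPM in WT libraries. The third *ime4-cat* total RNA library lay among the WT libraries. The log2 fold change was 0.49 ± 0.15 (adjusted p = 0.029) with that library and 0.68 without it (adjusted p = 0.00034), and the call was lost when any one of the other 5 libraries was left out (adjusted p from 0.061 to 0.13), without TMM factors (0.051) and in a fit of these 6 libraries alone (0.19).

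*GDH3* and *GDH1* encode the NADP-dependent glutamate dehydrogenases that make glutamate from ammonium, and Gdh3p is the form known from growth on non-fermentable carbon. *GDH3* had 4689, 6231 and 5107 CPM in *ime4-cat* polysomal libraries, against 3477, 4669 and 3542 CPM in WT polysomal libraries, a difference of 0.46 ± 0.17 that did not pass the test (adjusted p = 0.09). It passed once same-numbered libraries were blocked together (0.46, adjusted p = 0.029). In total RNA it had 6415, 6999 and 4008 CPM in *ime4-cat* libraries, against 3695, 4254 and 4158 CPM in WT libraries. This passed the test (log2 fold change 0.52 ± 0.17, adjusted p = 0.045), and more clearly without the third *ime4-cat* total RNA library (0.73, adjusted p = 0.0011), but did not pass when any one of the other 5 libraries was left out (adjusted p from 0.088 to 0.20), with upper quartile factors (0.058), in limma-trend (0.076) or in a fit of these 6 libraries alone (0.19).

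*GDH1*, like *MEP1*, did not pass the test in either fraction. It had 754, 857 and 764 CPM in *ime4-cat* polysomal libraries, against 914, 941 and 959 CPM in WT polysomal libraries, so that every *ime4-cat* library was below every WT library. Its log2 fold change was -0.25 ± 0.14 (adjusted p = 0.30), short of the threshold. In total RNA, with 1034, 943 and 698 CPM in *ime4-cat* total RNA and 982, 917 and 1050 CPM in WT total RNA libraries, the groups overlapped, and without the third *ime4-cat* library the log2 fold change was 0.01 (adjusted p = 0.98). Per kb of coding sequence, *GDH3* was 6.18, 7.22 and 6.64 times *GDH1* in *ime4-cat* polysomal libraries, against 3.78, 4.93 and 3.67 times in WT polysomal libraries. In total RNA it was 6.17, 7.38 and 5.70 times *GDH1* in *ime4-cat* total RNA libraries, against 3.74, 4.61 and 3.94 times in WT total RNA libraries. These ratios did not overlap in either fraction (two-sided exact permutation, p = 0.1 each and 0.133 adjusted).

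*GLT1* and *GDH2* did not pass the test in either fraction. *GLT1* had 953, 1298 and 1384 CPM in *ime4-cat* polysomal libraries, against 807, 952 and 904 CPM in WT polysomal libraries, which were separated by less than 1 CPM (log2 fold change 0.45 ± 0.19, adjusted p = 0.12). With the replicate block this difference passed (0.43, adjusted p = 0.026). In total RNA its log2 fold change was 0.40 ± 0.18 (adjusted p = 0.15), 0.41 with the replicate block (adjusted p = 0.029) and 0.52 without the third *ime4-cat* library (adjusted p = 0.05, not under the threshold). *GDH2*, the catabolic enzyme, had 588, 499 and 499 CPM in *ime4-cat* polysomal libraries, against 572, 526 and 562 CPM in WT polysomal libraries. The interval of its log2 fold change ran from -0.41 to 0.28 in polysomal RNA and from -0.33 to 0.33 in total RNA. In *ime4-cat* total RNA libraries *GDH2* had 562, 680 and 1022 CPM, with the third library the highest of the 18, and without it the log2 fold change over WT was -0.28 (adjusted p = 0.14).

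In total RNA, 4 of the 9 genes were higher in *ime4-cat* cells and none was lower (*MEP3*, *GAP1*, *GLN1* and *GDH3*), against 14.7% of all genes in either direction, 7.55% higher and 7.18% lower. All 3 *ime4-cat* libraries lay above all 3 WT libraries for *MEP2*, *MEP3* and *GAP1*, beside 13.3% of all genes. Of the calls over all genes 51.3% were higher, and 33.2% without TMM factors. Without the third *ime4-cat* total RNA library 5 were called, as *MEP2* joined them, while calls over all genes rose from 868 to 1283. The replicate block gave 6, with *MEP2* and *GLT1*, beside 1126 calls over all genes. These directions rest on the strain numbers, since under the titles the libraries taken as *rme1-10* total RNA stand for *ime4-cat* and those taken as *ime4-cat* stand for WT, and *GAP1* would then be at -0.97, *MEP3* at -0.79, *GDH3* at -0.34 and *GLN1* at -0.28 on the log2 scale. The difference between the fractions in the effect of *ime4-cat* was called for none of the 5891 genes (0%, edgeR), with 212 genes (3.6%) at an unadjusted p under 0.05 and none by DESeq2 or limma-trend. For the 9 genes the difference ranged from -0.27 (*MEP3*) to 0.25 (*MEP2*) on the log2 scale, with unadjusted p from 0.27 upwards, so the fraction in which a gene was called does not show that the effect differed.

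**Figure D3:**
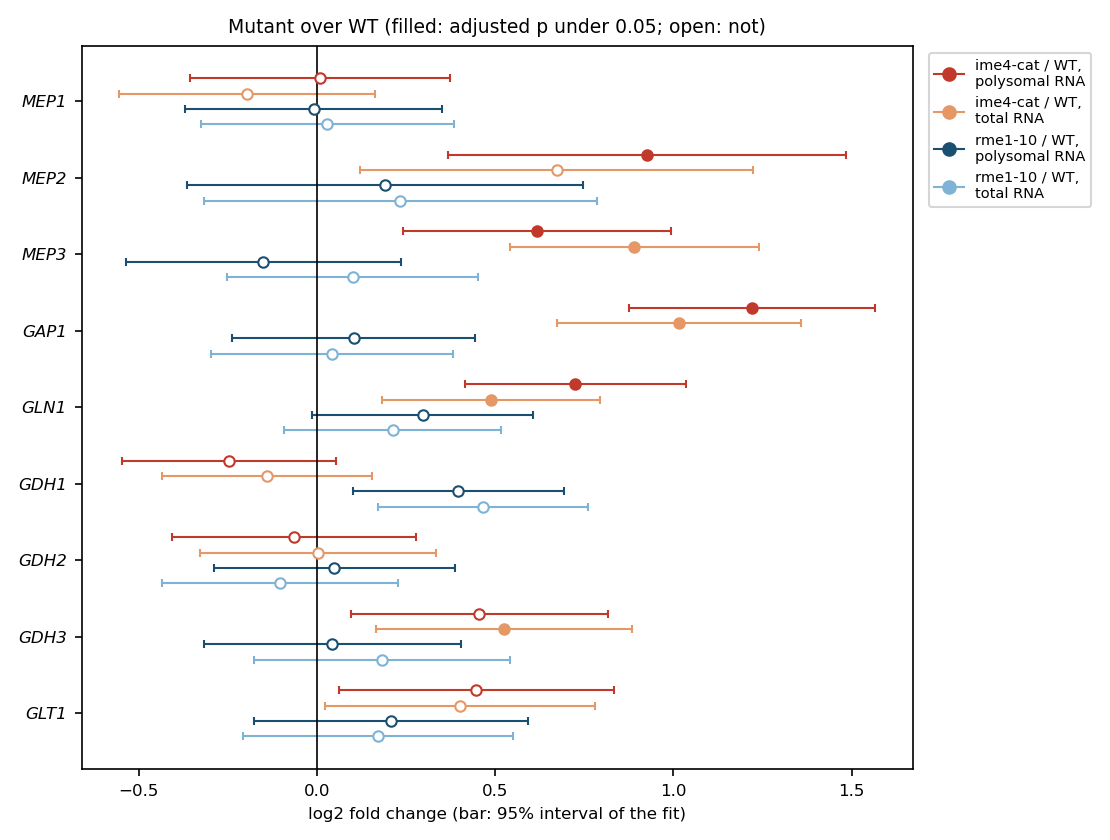
Log2 fold change of each gene in *ime4-cat* and *rme1-10* cells over WT cells, in polysomal and total RNA, with the 95% interval of the fit (filled, adjusted p under 0.05). *GAP1* is highest, at 1.22 in polysomal and 1.02 in total RNA of *ime4-cat* cells, and no point of *rme1-10* cells is filled.

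Comparison of *rme1-10* with WT cells asked the same of the loss of the m6A site in *RME1* alone. None of the 9 genes and none of the 5891 genes tested (0%) passed the test in polysomal or in total RNA. *RME1* itself did not pass. It was at 0.59 ± 0.17 in polysomal (edgeR unadjusted p = 0.0019) and 0.53 ± 0.15 in total RNA (unadjusted p = 0.0026). The median log2 fold change of the 9 genes was 0.10 in polysomal and 0.17 in total RNA, beside -0.002 and -0.0009 for all genes. At an unadjusted p under 0.05 there were 128 genes (2.17%) in polysomal and 77 genes (1.31%) in total RNA, and DESeq2 and limma-trend also called none. These shares are below what chance gives at that threshold. Same-numbered *rme1-10* and WT libraries deviated together, which the main fit does not model. The lack of calls therefore does not show that no gene changed. Under the titles, which turn other libraries into *rme1-10*, 614 genes were called in polysomal and 1111 in total RNA. *GDH1* was the one gene of the 9 with an unadjusted p under 0.05. It had 1102, 1234 and 1372 CPM in *rme1-10* polysomal libraries, against 914, 941 and 959 CPM in WT polysomal libraries, and 1234, 1277 and 1561 CPM in *rme1-10* total RNA libraries, against 982, 917 and 1050 CPM in WT total RNA libraries. The groups did not overlap in either fraction, as for *GLN1* in polysomal and *GDH3* in total RNA, and 4.84% of all genes lay wholly above WT in each. *GDH1* stood at a log2 fold change of 0.40 ± 0.14 in polysomal RNA (unadjusted p = 0.011, edgeR adjusted p = 1) and 0.47 ± 0.14 in total RNA (unadjusted p = 0.0034, adjusted p = 1).

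None of the genes that were higher in *ime4-cat* cells passed the test in *rme1-10* cells. *GAP1* had 2077, 2702 and 2537 CPM in *rme1-10* polysomal libraries, against 2055 to 2411 CPM in WT polysomal libraries, and the 95% interval of its log2 fold change was -0.24 to 0.44. *MEP2* had 886, 1450 and 1484 CPM in *rme1-10* polysomal libraries, against 842 to 1272 CPM in WT polysomal libraries (interval -0.36 to 0.75). *MEP3* had 70.6, 49.96 and 59.0 CPM in *rme1-10* polysomal libraries, against 60.5 to 72.3 CPM in WT polysomal libraries (interval -0.53 to 0.23). *GLN1* had 1043, 1125 and 1163 CPM in *rme1-10* polysomal libraries, against 838 to 962 CPM in WT polysomal libraries, which did not overlap, at 0.30 ± 0.15 on the log2 scale (unadjusted p = 0.059).

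The effects of both mutations were set against each other directly, a comparison added after the levels were seen. In polysomal RNA *GAP1* (log2 fold change 1.12 ± 0.17, adjusted p = 0.00022) and *MEP3* (0.77 ± 0.19, adjusted p = 0.01) were higher in *ime4-cat* than in *rme1-10* cells, and *GDH1* was lower (-0.64 ± 0.14, adjusted p = 0.0063), against 9.54% of all genes called (262 higher and 300 lower, and 156 and 355 without TMM factors). *MEP3* was not called there without *ime4-cat* polysomal replicate 2 (adjusted p = 0.055) or *rme1-10* polysomal replicate 2 (0.073). In total RNA the same 3 genes passed, with *GAP1* at 0.97 ± 0.16 (adjusted p = 0.00084), *MEP3* at 0.79 ± 0.16 (adjusted p = 0.0029) and *GDH1* at -0.61 ± 0.14 (adjusted p = 0.0088), against 10.2% of all genes (277 higher and 323 lower, and 149 and 425 without TMM factors). In a fit of those 6 libraries alone none of the 3 passed (adjusted p from 0.071 to 0.14), *GDH1* did not pass without *rme1-10* total RNA replicate 3 (0.07), and under the titles *MEP3* was at -0.10 and *GDH1* at 0.14. Without the third *ime4-cat* total RNA library 5 of the 9 genes passed, with *GLN1* (0.47, adjusted p = 0.0099) and *GDH3* (0.55, adjusted p = 0.013) added. Calls over all genes rose at the same time from 600 to 1016. In polysomal RNA *GLN1* (0.43 ± 0.15, adjusted p = 0.076) and *MEP2* (0.74 ± 0.27, adjusted p = 0.091) did not pass. *GDH3* was 3.16, 3.59 and 2.95 times *GDH1* per kb in *rme1-10* polysomal libraries, below all *ime4-cat* and all WT polysomal libraries.

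Polysomal RNA was then compared with total RNA within each strain. *GLN1* was the only gene of the 9 that passed this test, in 2 of the strains. In WT cells it had 913, 962 and 838 CPM in polysomal libraries, against 1257, 1448 and 1402 CPM in total RNA libraries, a log2 fold change of -0.60 ± 0.15 (adjusted p = 0.015) where 10.4% of all genes were called (304 higher and 310 lower, and 243 and 391 with upper quartile factors). In *rme1-10* cells it had 1043, 1125 and 1163 CPM in polysomal libraries, against 1424, 1635 and 1701 CPM in total RNA libraries (-0.52 ± 0.15, adjusted p = 0.049), where 4.52% of all genes were called (121 higher and 145 lower, and 81 and 204 with upper quartile factors). In *ime4-cat* cells it had 1469, 1539 and 1473 CPM in polysomal libraries, against 2187, 2200 and 1376 CPM in total RNA libraries, which did not pass (-0.36 ± 0.15, adjusted p = 0.14), but did without the third *ime4-cat* total RNA library (-0.55, adjusted p = 0.0087). The groups did not overlap in WT or *rme1-10* cells, where 19.1% and 16.7% of all genes lay wholly below in polysomal RNA. The WT call was lost without WT polysomal replicate 3 (adjusted p = 0.066), WT total RNA replicate 2 (0.063) or WT total RNA replicate 3 (0.061), and the *rme1-10* call without any library but *rme1-10* total RNA replicate 1 (adjusted p from 0.11 to 0.16), with DESeq2 size factors (0.051) and in limma-trend (0.057).

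The other 8 genes did not pass this test in any strain. *GDH2* had negative values in each strain, at -0.51 ± 0.16 in *ime4-cat* (adjusted p = 0.059), -0.29 ± 0.16 in *rme1-10* (0.31) and -0.44 ± 0.16 in WT cells (0.082). *MEP1* had positive values, at 0.54 ± 0.17 in *ime4-cat* (adjusted p = 0.06), 0.30 ± 0.17 in *rme1-10* (0.32) and 0.34 ± 0.17 in WT cells (0.22). In *ime4-cat* cells, where 7.57% of all genes were called (190 higher and 256 lower, and 110 and 308 with upper quartile factors), both *MEP1* and *GDH2* passed by DESeq2 (0.039 and 0.045). Neither *GAP1* nor *MEP2* was separated between fractions in any strain, with log2 values from -0.16 to 0.31. The change of this polysome-to-total difference in *rme1-10* against WT cells was also called for none of the 5891 genes (0%, edgeR), with 55 genes (0.934%) at an unadjusted p under 0.05.

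**Figure D4:**
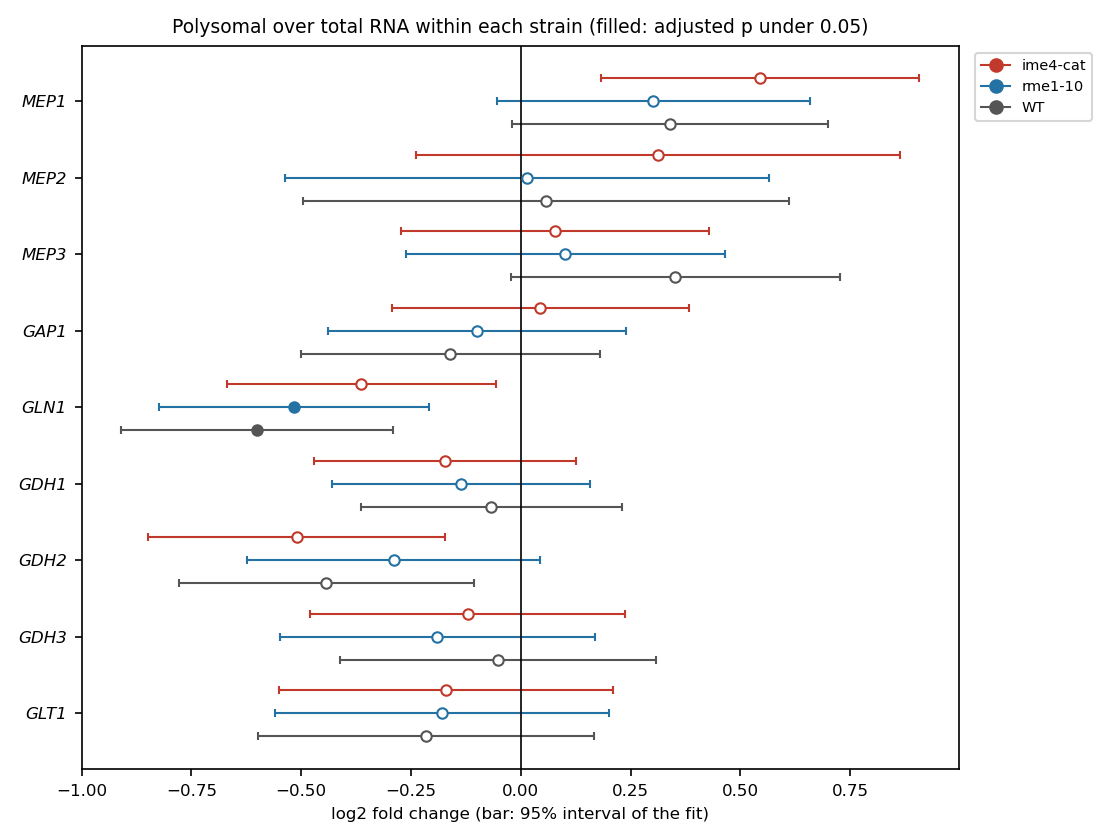
Log2 fold change of polysomal over total RNA for each gene in *ime4-cat*, *rme1-10* and WT cells, with the 95% interval of the fit. *GLN1* lies at -0.36, -0.52 and -0.60, with the last 2 filled (adjusted p under 0.05), and *MEP1* lies above 0 in each strain.

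Other genes of nitrogen supply gave a context for these values. Of 21 other amino acid and nitrogen permease genes, 8 were higher and 1 was lower in *ime4-cat* than in WT polysomal RNA, beside 5.96% and 6.65% of all genes, with a median log2 fold change of 0.46. They included *MUP1*, for methionine uptake (1.08 ± 0.21, adjusted p = 0.0017), and *DIP5*, for glutamate and aspartate (1.06 ± 0.20, adjusted p = 0.0011), while *ALP1*, an arginine permease, fell (-1.19 ± 0.28, adjusted p = 0.0073). In total RNA 7 were higher and 1 was lower, beside 7.55% and 7.18% of all genes, among them *MUP1* (1.18), *AGP1* (0.90), a permease of broad range, and *ALP1* (-0.99). Without the third *ime4-cat* library those counts were 8 and 3, while over all genes they rose from 445 and 423 to 649 and 634. Of 7 genes of proline and GABA metabolism, 4 were higher and none lower in polysomal RNA, against the same shares of all genes. The list holds enzymes of proline and GABA breakdown, which yields glutamate, and also regulators and *GAD1*, which uses glutamate. *UGA3*, which activates the GABA genes, was at 0.79 ± 0.25 (adjusted p = 0.038), *UGA2* at 0.77 ± 0.16 (0.0029) and *PUT1*, proline oxidase, at 0.71 ± 0.12 (0.00053). In total RNA 3 of these 7 were higher, namely *UGA2* (0.66), *PUT1* (0.49) and *GAD1*, glutamate decarboxylase (0.48), and none was lower.

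Of 14 genes that supply 2-oxoglutarate or control its supply, 4 were higher and none lower in *ime4-cat* polysomal RNA, beside 5.96% and 6.65% of all genes, with *ACO1*, aconitase, at 0.62 ± 0.14 (adjusted p = 0.004), *IDP1*, a mitochondrial isocitrate dehydrogenase, at 0.58 ± 0.15 (0.012) and *RTG2*, of the retrograde pathway, at 0.48 ± 0.14 (0.029). In total RNA, where 7.55% of all genes were higher and 7.18% lower, 5 were higher, among them *IDP2* (0.63) and *IDP1* (0.57), and 1 was lower, *RTG1* (-1.23), a transcription factor of the retrograde pathway with a mean of 18.1 CPM in *ime4-cat* and 42.6 CPM in WT libraries. Of 9 nitrogen regulators, *DAL80*, itself a target of GATA factors and a repressor, was higher in polysomal (0.90 ± 0.20, adjusted p = 0.0049) and in total RNA (0.60 ± 0.20, adjusted p = 0.045), and the other 8 did not pass, so that 1 of 9 was called in each fraction, beside 12.6% and 14.7% of all genes. None of the 3 genes for ammonium export passed. In *rme1-10* cells no gene of these lists passed in either fraction.

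Markers of meiotic entry moved in the opposite direction. All 9 early meiotic markers were lower in *ime4-cat* than in WT polysomal RNA, and 8 of 9 in total RNA or all 9 without the third *ime4-cat* library, with *SPO11*, which makes meiotic DNA breaks, at -2.24 ± 0.31 and *REC8*, the meiotic cohesin, at -2.09 ± 0.30 in polysomal RNA. Their summed level was 1520 to 1824 CPM in *ime4-cat*, 4156 to 4645 CPM in *rme1-10* and 4434 to 4988 CPM in WT polysomal libraries, and none of the 9 was at 0. In *ime4-cat* total RNA libraries it was 1680, 1740 and 3814 CPM, the highest in the third library, against 5359 to 5774 CPM in WT total RNA libraries. Under the titles the sum would be 1680 to 3814 CPM in WT input and 4571 to 5179 CPM in *ime4-cat* input libraries. That order is the reverse of the one in polysomal RNA, where the labels of *ime4-cat* and WT libraries agree. Whether fewer cells had entered meiosis or each cell held less of these RNAs cannot be told apart in bulk RNA, and the part of meiotic progress in the values of the 9 genes was not tested. Haploid-specific markers, which diploids should lack, summed to 58.8 to 91.3 CPM over 5 genes in all 18 libraries.

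**Figure D5:**
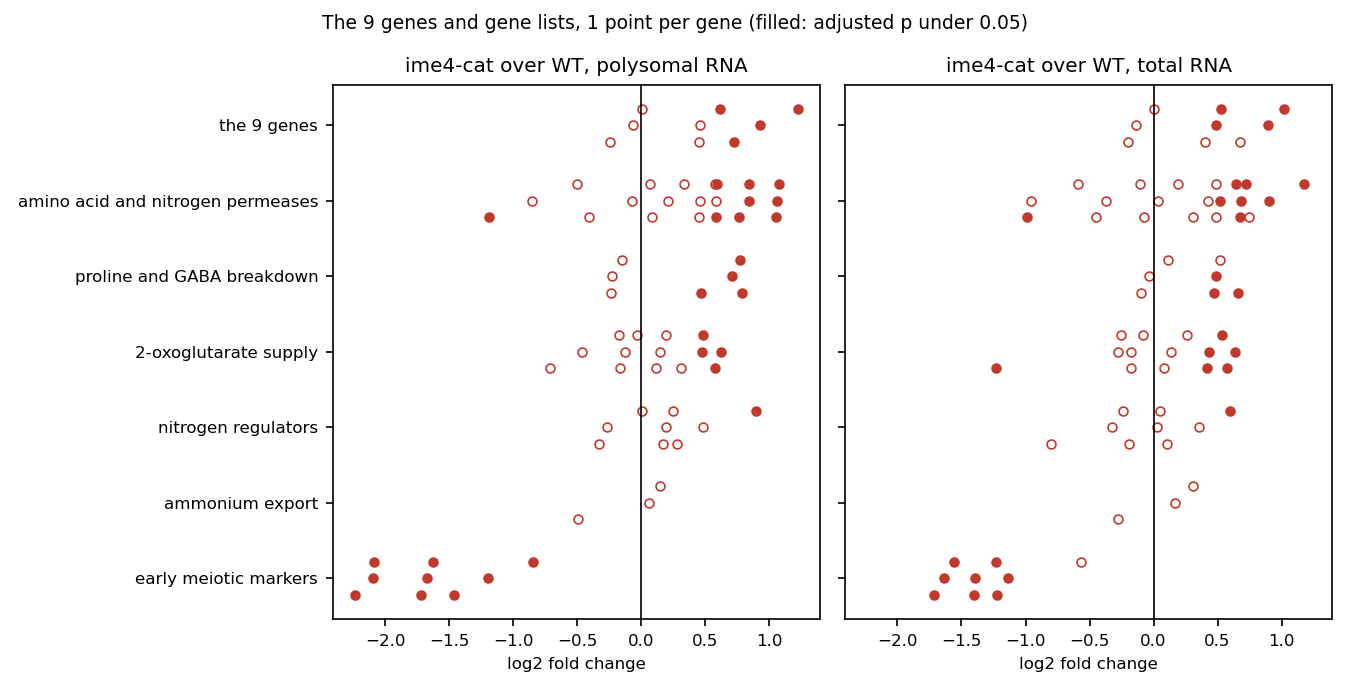
Log2 fold change in *ime4-cat* over WT cells for the 9 genes and 6 gene lists, in polysomal (left) and total RNA (right), 1 point per gene, filled at an adjusted p under 0.05. Points of the permease list reach 1.08 in polysomal RNA and early meiotic markers reach -2.24.

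Among themselves the 9 genes varied together to different degrees across the 18 libraries. *GAP1* had a Pearson correlation of log2 CPM of 0.861 with *MEP2*, 0.857 with *MEP3*, 0.802 with *GDH3* and 0.762 with *GLT1*. *GLN1* had 0.795 with *GDH3*, 0.768 with *GLT1* and 0.689 with *GAP1*, and *MEP3* had 0.531 with *GDH3* and 0.499 with *GLT1*. *MEP1* had -0.003 with *GAP1*, and *GDH1* had -0.497 with *GAP1* and -0.104 with *GDH3*. The 18 libraries share strains, fractions and replicate numbers, so these values describe the libraries and carry no test. Of 5115 other genes with a mean of at least 20 CPM, the one most like *GAP1* was *SUL1*, a sulfate permease (0.968), the one most like *MEP2* was *CAN1*, the arginine permease (0.945), and the one most like *MEP3* was YMR155W (0.947). *GLN1* was most like *CDC19*, pyruvate kinase (0.97), and *GDH3* most like *PDC1*, pyruvate decarboxylase (0.968). *MEP1* was most like *GDA1* (0.909), *GDH2* most like *LCB4* (0.912), *GLT1* most like *CSS1* (0.923) and *GDH1* most like *GCG1* (0.796), the lowest likeness of the 9.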

How the data were processed

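Poly(A)-selected RNA from polysome fractions and input lysates was sequenced in 18 libraries, 3 for each of 3 strains and 2 fractions. The authors deposited counts, that is, unnormalized whole numbers of reads for each gene, as a separate table for every library. The submitters' processing notes name TopHat2 and sacCer3, and the counting program and its strand setting are not given in the sources used here, so antisense reads cannot be told apart. Non-unique alignments made up 80.8% to 94.3% of all entries in polysomal libraries and 57.5% to 88.1% in total RNA libraries. Between 3.22% and 23.5% fell outside genes and between 0.0132% and 0.0703% were ambiguous. All of these stayed out of library sizes and tests. The series' 12 m6A-seq samples were not used here.

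Counts were normalized by TMM and fitted with edgeR 4.0.16 (filterByExpr, glmQLFit, glmQLFTest) in R 4.3.3, with 1 term per strain and fraction over all 18 libraries and 12 residual degrees of freedom. P-values were adjusted by Benjamini-Hochberg over 5891 genes with a threshold of 0.05. SE and 95% intervals come from this fit, and the common biological coefficient of variation was 0.155. Replicates differed by more than sampling noise (chi-square per degree of freedom 1.6 to 22.5). The study calls them biological replicates, and p-values measure the spread between them. Polysomal and total RNA came from the same lysates by the paper's account, but the fit treats their libraries as independent.

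Same-numbered *ime4-cat* total RNA and WT total RNA libraries deviated together (correlations 0.409, 0.292 and 0.207), as did those of both *rme1-10* comparisons with WT (0.13 to 0.611). Of *ime4-cat* polysomal and WT polysomal libraries the first and second pairs deviated together (0.497 and 0.469), whereas the third did not (0.082). Alternatives were DESeq2 1.42.0 size factors or Wald test, no TMM or upper quartile factors, 2 other filters, limma-trend (limma 3.58.1, prior count 2), the replicate block, the 6 or 12 libraries of a comparison alone, groups by title and each library left out. The fit was first tested on simulated data for *ime4-cat* against WT polysomal RNA. It called 71% of 2-fold and 85% of 3-fold changes, and 4.88% of its calls fell on unchanged genes. The simulated libraries were independent and drawn with the spread this fit estimated. They held no shared deviation of same-numbered libraries and no change under 2-fold, so the rates do not cover those cases. Symbols and sequences came from RefSeq (R64), which matched 6048 genes, read with Python 3.11.15. Figures used matplotlib 3.10.9.

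The genes named are the 9 genes, *RME1* and *IME4*, from each list at most 3 genes per comparison with the largest absolute log2 fold change among those called, and for each of the 9 genes the gene with the most similar profile. The 9 genes and the lists were chosen with earlier results of these data known.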

Additional observations from a re-analysis of the deposited data

How the results depend on the processing

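Directions and calls depended most on which label names a library. With groups by title in place of strain number, *ime4-cat* against WT in total RNA had *MEP3* at -0.79, *GAP1* at -0.97, *GLN1* at -0.28, *GDH1* at 0.61 and *GDH3* at -0.34 on the log2 scale, all reversed, and *rme1-10* against WT in total RNA had *MEP3* at -0.69, *GAP1* at -1.07, *GLN1* at -0.79 and *GDH3* at -0.53. Also reversed were *MEP3* between WT fractions (-0.54), *GLN1* between *rme1-10* fractions (0.30), and *MEP3* (1.41) and *GDH3* (0.80) in the change of polysome-to-total difference in *ime4-cat*. The genes called by title were 614 (1 of the 9) for *rme1-10* polysomal RNA, 1111 (6 of the 9) for *rme1-10* total RNA, 1541 (7) for WT fractions, 1544 (4) for *ime4-cat* fractions, 1455 (6) and 1625 (4) for the changes between fractions in *ime4-cat* and *rme1-10*, and 0 of the 9 for *rme1-10* fractions. For *ime4-cat* against *rme1-10*, whose alternatives were chosen after seeing the data, the titles called 1618 genes in polysomal RNA and 266 genes and 1 of the 9 in total RNA, with *MEP3* at -0.10 and *GDH1* at 0.14 reversed. Outside the titles, no value of the 9 genes that passed the test in either fit changed sign, although some that passed in neither did, 1525 kept their side of the threshold, 27 gained a call and 41 lost one, and the cause was not tested. Fitting only the libraries compared, with fewer degrees of freedom, called 132 genes and 2 of the 9 in *ime4-cat* total RNA, 2 genes in *rme1-10* polysomal RNA, 1383 genes and 2 of the 9 in WT fractions, 4 genes in *ime4-cat* fractions and 513 in *rme1-10* fractions, and for *ime4-cat* against *rme1-10* total RNA 17 genes and 0 of the 9. Upper quartile factors called 2 of the 9 in WT fractions. In *ime4-cat* fractions, 1 of the 9 was called without TMM factors, with upper quartile factors, with at least 10 counts per library and by limma-trend, and 2 by DESeq2. In *rme1-10* fractions 0 were called with DESeq2 size factors, without the filter and by limma-trend. With the replicate block, *ime4-cat* against WT had 937 genes called in polysomal RNA, where *GDH3* (0.029) and *GLT1* (0.026) passed, and 1126 in total RNA. The block called 884 genes in WT, 640 in *ime4-cat* (2 of the 9) and 503 in *rme1-10* fractions, and 5 of the 9 for *ime4-cat* against *rme1-10* polysomal RNA, with *MEP2* (0.0015) and *GLN1* (0.044), and in total RNA it added *MEP2* (0.025). It changed no other call of the 9 genes. Between fractions of a strain, same-numbered libraries did not deviate together in every pair (correlations from -0.23 to 0.222). By the paper's account both fractions came from the same lysates, but a block there takes the pairs from the replicate numbers alone. Leaving out each library in turn called 478 to 613 genes and 2 to 4 of the 9 in *ime4-cat* polysomal RNA (485 without *ime4-cat* polysomal replicate 3, 478 without WT polysomal replicate 3), 356 to 1283 genes and 2 to 5 of the 9 in *ime4-cat* total RNA (499 without WT total RNA replicate 2, 356 without WT total RNA replicate 3), 185 to 387 genes and 0 to 1 of the 9 in WT fractions, 127 to 678 and 0 to 2 in *ime4-cat* fractions, 46 to 162 and 0 to 1 in *rme1-10* fractions, 303 to 430 and 2 to 3 for *ime4-cat* against *rme1-10* in polysomal and 200 to 1016 and 2 to 5 in total RNA (1016 without *ime4-cat* replicate 3), and 0 elsewhere. No alternative setting was tried for the per-library ratios. At the depth of the shallowest libraries *MEP3* rested on as few as 31 reads.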
